A study of Bubalus bubalis with 12 samples.

Results

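The antioxidant enzymes and metallothioneins of the corpus luteum (CL) of the buffalo cow were examined after a luteolytic dose of a prostaglandin analogue. The members were the glutathione S-transferases, glutathione peroxidases, peroxiredoxins, superoxide dismutases, catalase, thioredoxin genes, haem oxygenases, quinone reductases, the enzymes that make and recycle glutathione, and the metallothioneins. They were taken by a rule on gene symbols among probe sets with exactly 1 symbol, with earlier results of these data known. Where a gene had several probe sets the brightest over all arrays was kept. This gave 47 of the 9155 genes measured. The CL develops at the site of ovulation, makes progesterone and regresses at the end of each cycle without pregnancy.

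On cycle day 11, buffalo cows received 500 µg of cloprostenol, an analogue of prostaglandin F2α (PGF2α), by intramuscular injection, and whole CL was taken 3, 6 or 18 h later. Every group shared the cycle day and a history of normal cycles. Animals of the 0 h group (control) received no treatment and no vehicle is described. There were 4 animals at 0 h, 2 at 3 h, 3 at 6 h and 3 at 18 h, each on 1 Affymetrix GeneChip Bovine Genome Array, so that 12 arrays were analysed. Values are log2 signals from robust multichip average (RMA), a procedure that corrects background, puts the arrays on 1 scale and merges the probes of a probe set. Because the array carries cattle sequences, levels were compared between arrays and never between genes.

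Cells that make steroids leak superoxide from their electron transport chains, and superoxide dismutases turn it into hydrogen peroxide. Catalase, the glutathione peroxidases and the peroxiredoxins remove that peroxide, the last of these with electrons from thioredoxin and thioredoxin reductase. Glutathione S-transferases join glutathione to lipid peroxidation products and other electrophiles, and metallothioneins are small cysteine-rich proteins that bind zinc and copper. Functional luteal cells are known to be rich in several of these enzymes, and reactive oxygen species are known to take part in luteal regression.

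Steroidogenic markers were bright on every array, and STAR, which carries cholesterol into mitochondria, lay between 14.08 and 14.91. The mean of 10 luteal steroidogenic markers lay at 13.03 to 13.46 at 0 h, 13.03 to 13.22 at 3 h, 12.49 to 12.89 at 6 h and 12.03 to 12.47 at 18 h. Of these markers 3 were called lower at 6 h and 7 at 18 h, against 7.66% and 8.35% of all genes. Because whole tissue was used, fewer cells of a type and less RNA per cell cannot be told apart. Control replicates 1 and 4 were unusually alike, with 6 probe sets differing over 2-fold, whereas this number was 310 to 802 for other pairs of controls and 1306 for the 3 h arrays. The labels count both as animals, and p-values against 0 h would be too small if they shared 1 RNA. Control replicate 3 stood apart in its macrophage and monocyte markers, whose mean was 10.15 there and 8.38 to 8.52 in the other controls. Over the 47 genes the median SD within a group was 0.18, 0.31, 0.14 and 0.20 at 0, 3, 6 and 18 h, and over all genes it was 0.16, 0.20, 0.13 and 0.14.

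A gene was called up or down regulated at an adjusted p under 0.05 (limma, two-sided, Benjamini-Hochberg over all probe sets). Against 0 h, 17 of the 47 genes were called at 1 or more times. The like share over all genes was not computed, so only the counts at single times can be set against all genes. At 3 h no member was called in either direction, where 0.0109% of all genes were called higher and 0.0218% lower, and 6 members had an unadjusted p under 0.05 (12.8%, against 10.9% of all genes). At 6 h 3 members were up regulated (MT1A, MT2A and TXN), against 6.55% of all genes, and 3 were down regulated (GPX3, MGST2 and SOD1), against 7.66%. At 18 h 2 members were up regulated (PRDX6 and TXNDC17), against 7.55% of all genes, and 11 were down regulated, against 8.35%. The counts at 6 h are thus close to the share over all genes, while the count of lower members at 18 h lies above it and that of higher members below it. Only 2 members were among the dimmest 40% of probe sets. Without those probe sets 3 members were higher and 12 lower at 18 h, against 9.54% and 11.4% of all genes. With control replicates 1 and 4 averaged, 3 members were higher and 2 lower at 6 h, against 3.52% and 3.50% of all genes. In the same fit 0 members were higher and 5 lower at 18 h (GSTA4, MGST3, PRDX3, GCLC and TXNL4B), against 5.02% and 4.97% of all genes, so that 10.6% of members were lower there. Over the 3 times together the moderated F test called 9 members, against 14.1% of all genes.

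**Figure D1:**
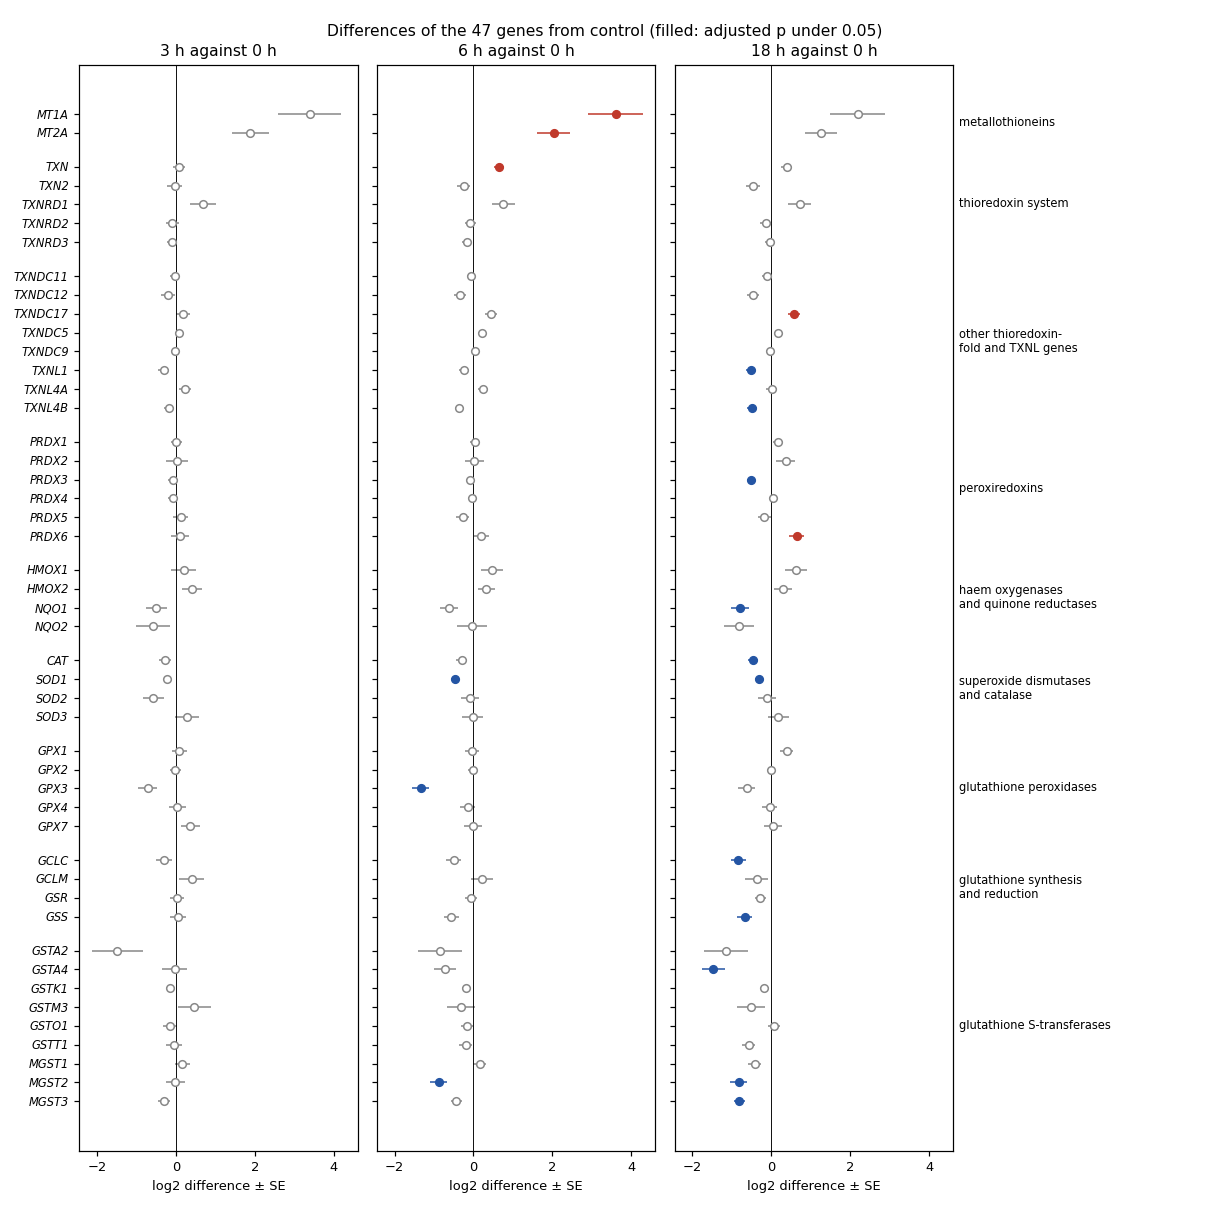
Log2 differences from 0 h (± SE of the fit) of the 47 genes at 3, 6 and 18 h, grouped by role, with filled points at an adjusted p under 0.05 (red higher, blue lower). The metallothioneins MT1A and MT2A lie farthest to the right at all 3 times, and the 11 filled blue points at 18 h fall in 6 of the 9 role groups.

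The median difference of the members from 0 h was -0.01 at 3 h, -0.08 at 6 h and -0.14 at 18 h, and that of all genes was -0.01, -0.05 and -0.02. Differences below 0 were found in 53.2% of members at 3 h, 68.1% at 6 h and 63.8% at 18 h, against 51.8%, 58.5% and 53.9% of all genes. The member differences spanned -1.48 to 3.39 at 3 h, -1.34 to 3.60 at 6 h and -1.47 to 2.19 at 18 h.

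**Figure D2:**
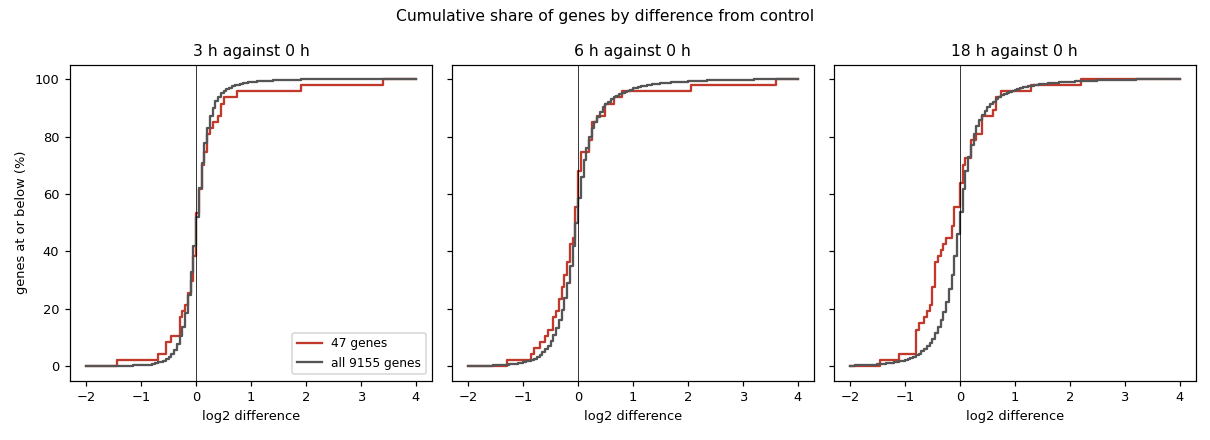
Share of genes (%) at or below each log2 difference from 0 h, for the 47 genes (red) and all 9155 genes (grey). The curves lie close together near 0 at 3 h. At a difference of 0 the red curve stands at 68.09% against 58.47% at 6 h and at 63.83% against 53.87% at 18 h. At -0.45 it stands at 17.02% against 10.88% at 6 h and at 36.17% against 11.44% at 18 h. The medians at 18 h are -0.14 and -0.02.

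The metallothioneins had the largest differences above 0 of all members at each time. MT1A, a metallothionein that buffers zinc and copper and can quench oxidants, read 6.97, 8.56, 9.39 and 6.88 in control replicates 1 to 4, 10.18 and 12.50 in 3 h replicates 1 and 3, 10.50, 12.50 and 11.64 in 6 h replicates 1 to 3 and 10.22, 10.17 and 10.01 in 18 h replicates 1 to 3. All treated arrays lay above all controls, and the 18 h arrays were close together while the controls and the 6 h arrays were spread. At 6 h MT1A averaged 11.55 ± 1.01 (SD, n = 3), against 7.95 ± 1.23 (n = 4) at 0 h, and was up regulated 12.1-fold (log2 3.60 ± 0.69 SE, adjusted p = 0.00903).

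MT2A, the other metallothionein measured under the rule, gave 8.79, 9.35, 9.74 and 8.81 at 0 h, 10.39 and 11.74 at 3 h, 10.44, 12.22 and 10.95 at 6 h and 10.36, 10.41 and 10.51 at 18 h. The order of the arrays was much like that of MT1A, with control replicates 2 and 3 above 1 and 4, 3 h replicate 3 above 1, and 6 h replicate 2 on top. At 6 h MT2A was up regulated 4.09-fold (log2 2.03 ± 0.41, adjusted p = 0.0109). Both calls at 6 h held under every alternative run.

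At 3 h the metallothionein differences were nearly as large, 3.39 ± 0.79 for MT1A and 1.89 ± 0.47 for MT2A, but neither was called (adjusted p = 0.209 and 0.230, n = 2 and 4). Without 3 h replicate 1, the lower of the pair, both were called (4.56, adjusted p = 0.028, and 2.56, adjusted p = 0.0362), with the lone array assumed to vary like the other groups. By 18 h the differences were 2.19 ± 0.69 for MT1A (4.55-fold, adjusted p = 0.0633) and 1.26 ± 0.41 for MT2A (2.39-fold, adjusted p = 0.0706). These missed the threshold with all arrays and passed it without control replicate 3 (2.67 and 1.44, adjusted p = 0.0192 for MT1A and 0.0442 for MT2A) or without either array at 3 h (0.0339 and 0.0398), and for MT2A without 6 h replicate 2 (0.0302). MT1A also passed it with the dimmest 40% of probe sets left out (0.0486). At 18 h against 6 h the difference was -1.41 ± 0.74 for MT1A (adjusted p = 0.529) and -0.78 ± 0.44 for MT2A (0.575), so a decline was not shown. Metallothioneins are near-identical copies, and cross-hybridisation between them and with unlisted family members cannot be told apart on these probe sets.

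**Figure D3:**
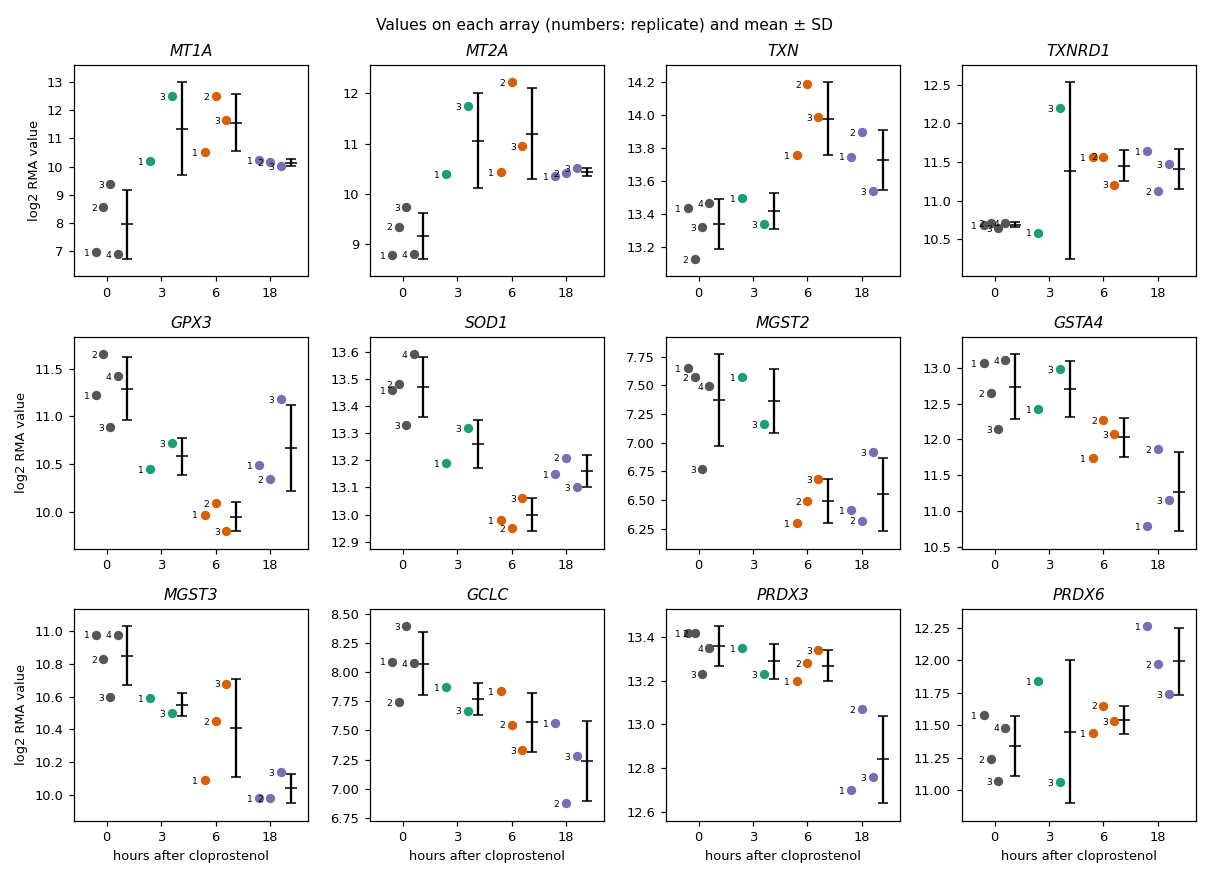
Log2 RMA values on each of the 12 arrays for 12 members at 0, 3, 6 and 18 h after cloprostenol, with points numbered by replicate and the group mean ± SD beside them. For MT1A every treated array (10.01 to 12.50) lies above every control (6.88 to 9.39), while for MGST3 the 18 h arrays (9.98 to 10.14) lie below every control (10.60 to 10.98).

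Genes of metal handling outside the rule were called about as often as all genes. Of 22 measured, 2 were higher and 2 lower at 6 h, against 6.55% and 7.66% of all genes, and 2 were higher and 0 lower at 18 h, against 7.55% and 8.35%. SLC39A8, a cell surface importer of zinc and manganese, stood at 9.26, 9.74, 9.53 and 8.93 at 0 h, 10.60 and 11.33 at 3 h, 11.74, 10.23 and 11.63 at 6 h and 11.08, 11.40 and 11.04 at 18 h. Its treated arrays were all above the controls, as with the metallothioneins, and it was up regulated 3.56-fold at 6 h (log2 1.83 ± 0.34, adjusted p = 0.00762) and 3.50-fold at 18 h (1.81 ± 0.34, adjusted p = 0.00563). The 6 h call was lost with replicate number added to the fit (0.0504). SLC31A2, which takes part in copper uptake, was up regulated at 18 h (1.14 ± 0.13, adjusted p = 0.000415) with arrays at 9.92, 9.92 and 10.02, against 8.54 to 9.08 at 0 h. HP, the haemoglobin scavenger haptoglobin, rose at 6 h (1.14 ± 0.30, adjusted p = 0.0347), a call lost without any 1 of control replicates 1, 3 and 4 and the 6 h arrays (0.0581 to 0.142). FTL, the light chain of the iron store ferritin, fell at 6 h (-0.51 ± 0.10, adjusted p = 0.00815) and differed by 0.09 ± 0.10 at 18 h. MTF1, the zinc-sensing transcription factor that drives metallothionein genes, differed by 0.08 ± 0.10 at 6 h and -0.15 ± 0.10 at 18 h, and MT3, a metallothionein best known from brain, by -0.19 ± 0.12 and -0.05 ± 0.12; both were chosen after their values were seen and were not called.

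In the thioredoxin system 1 of 5 genes was called, higher at 6 h, where 6.55% of all genes were called higher. TXN, the cytosolic thioredoxin that reduces disulfides and feeds the peroxiredoxins, read 13.44, 13.13, 13.32 and 13.47 at 0 h, 13.50 and 13.34 at 3 h, 13.76, 14.19 and 13.99 at 6 h and 13.75, 13.90 and 13.54 at 18 h. The arrays at 3 h lay at the level of the controls, and those at 6 and 18 h lay above all controls. TXN was up regulated 1.56-fold at 6 h (log2 0.64 ± 0.13, adjusted p = 0.0109), a call lost without 6 h replicate 2 (0.0548), and its difference was 0.39 ± 0.13 at 18 h (adjusted p = 0.077) and 0.08 ± 0.15 at 3 h.

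TXNRD1, the selenoenzyme that reduces TXN, had closely spaced controls, at 10.69, 10.71, 10.65 and 10.71. It read 10.59 and 12.20 in 3 h replicates 1 and 3, 11.56, 11.57 and 11.21 at 6 h and 11.64, 11.13 and 11.47 at 18 h. Every array at 6 and 18 h lay above the controls, whereas the animals at 3 h were split. The differences of 0.70 ± 0.33 at 3 h, 0.76 ± 0.29 at 6 h and 0.72 ± 0.29 at 18 h were not called (adjusted p = 0.509, 0.119 and 0.132). The spread was estimated over all groups together, and without either array at 3 h TXNRD1 was called at 6 h (adjusted p = 0.00426) and at 18 h (0.00434), and without 3 h replicate 1 also at 3 h (1.50, adjusted p = 0.00404). No gene of the mitochondrial arm was called with all arrays, and neither was TXNRD3, which is not part of that arm. TXN2, the mitochondrial thioredoxin, differed by -0.25 ± 0.17 at 6 h and -0.46 ± 0.17 at 18 h (adjusted p = 0.0985 at 18 h, and 0.00843 without either 3 h array), TXNRD2, its reductase, by -0.08 ± 0.14 and -0.14 ± 0.14, and TXNRD3 by -0.17 ± 0.11 and -0.04 ± 0.11.

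Among 8 other thioredoxin-fold and TXNL genes, 1 rose and 2 fell at 18 h, and none was called at 6 h. All genes gave 7.55% higher and 8.35% lower at 18 h, and 6.55% and 7.66% at 6 h. TXNDC17, a small cytosolic disulfide reductase, read 11.13, 11.04 and 11.03 at 18 h, against 10.44, 10.39, 10.72 and 10.40 at 0 h, with no overlap, and was up regulated 1.49-fold (log2 0.58 ± 0.15, adjusted p = 0.0327). At 3 h it read 11.05 and 10.31, and at 6 h 10.88, 11.05 and 10.89. The call was lost without any 1 of control replicates 1, 2 and 4 and the 18 h arrays (adjusted p = 0.0733 to 0.117). At 6 h TXNDC17 was called only without control replicate 3 (0.0473) or either 3 h array (0.0145).

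TXNL1, a thioredoxin-like protein bound to the proteasome, had 9.74, 9.81 and 9.77 at 18 h, below the controls at 10.50, 10.00, 10.26 and 10.41, and was down regulated 1.44-fold (log2 -0.52 ± 0.12, adjusted p = 0.0182). Its arrays stood at 9.95 and 10.02 at 3 h and at 10.23, 10.04 and 9.89 at 6 h. Its second probe set did not follow (0.12 ± 0.20), so the mean of both gave an adjusted p of 0.35. The call was also lost without control replicate 1 or 4 or 18 h replicate 1 or 3 (0.0552 to 0.0713).

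TXNL4B, which takes part in pre-mRNA splicing rather than in peroxide removal, had 7.12, 7.12 and 7.44 at 18 h, against 7.68, 7.79, 7.75 and 7.59 at 0 h, and fell 1.39-fold (-0.48 ± 0.12, adjusted p = 0.0215). It read 7.71 and 7.35 at 3 h and 7.24, 7.32 and 7.45 at 6 h, where the 6 h arrays too lay below every control. The 18 h call was lost without control replicate 1 or 2 or 18 h replicate 1 or 2 (0.0517 to 0.096), and a 6 h call was gained without either 3 h array (0.0406). The other 5 genes of this group were not called at any time with all arrays, with differences of -0.46 (TXNDC12, in the endoplasmic reticulum) to 0.18 (TXNDC5, a protein disulfide isomerase of the same compartment) at 18 h. TXNDC12 was called at 18 h without control replicate 3 (0.0429) or 18 h replicate 2 (0.0469).

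Of 6 peroxiredoxins 1 fell and 1 rose at 18 h, against 8.35% and 7.55% of all genes. PRDX3, the mitochondrial peroxiredoxin, read 13.42, 13.42, 13.23 and 13.35 at 0 h, 13.35 and 13.23 at 3 h, 13.20, 13.28 and 13.34 at 6 h and 12.70, 13.07 and 12.76 at 18 h. Arrays of the first 6 h overlapped the controls and the 18 h arrays lay below all of them. At 18 h PRDX3 was down regulated 1.43-fold (log2 -0.51 ± 0.10, adjusted p = 0.00891) under every alternative run, although a dim second probe set stood at 0.02 ± 0.11.

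PRDX6, a cytosolic peroxiredoxin that uses glutathione and also acts on phospholipids, read 11.58, 11.24, 11.07 and 11.48 at 0 h, 11.84 and 11.06 at 3 h, 11.44, 11.65 and 11.53 at 6 h and 12.26, 11.97 and 11.74 at 18 h. Its 18 h arrays lay above all controls, and 3 h replicate 1 lay within their range. PRDX6 was up regulated 1.57-fold at 18 h (log2 0.65 ± 0.19, adjusted p = 0.0477), called at 1 of 4 probe sets, the others lying between -0.07 and 0.27. The call was lost without any 1 of the 4 controls, the 6 h arrays or 18 h replicates 1 and 2 (adjusted p = 0.058 to 0.194). PRDX1, PRDX2, PRDX4 and PRDX5 were not called, with differences of 0.17, 0.37, 0.04 and -0.17 at 18 h. PRDX2, a cytosolic member abundant in red cells, was called at 18 h without either array at 3 h (adjusted p = 0.0398).

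Of the superoxide dismutases and catalase, 1 of 4 genes fell at 6 h and 2 at 18 h, against 7.66% and 8.35% of all genes. SOD1, the cytosolic copper and zinc superoxide dismutase, read 13.46, 13.48, 13.33 and 13.59 at 0 h, 13.19 and 13.32 at 3 h, 12.98, 12.95 and 13.06 at 6 h and 13.15, 13.21 and 13.10 at 18 h. No treated array reached the lowest control, and the 6 h arrays were the lowest. SOD1 was down regulated 1.38-fold at 6 h (log2 -0.47 ± 0.09, adjusted p = 0.0078) and 1.24-fold at 18 h (-0.31 ± 0.09, adjusted p = 0.0392). The 18 h call was lost without any 1 of control replicates 1, 2 and 4, the 6 h arrays and the 18 h arrays (0.0534 to 0.125).

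CAT, the peroxisomal catalase, had 11.58, 11.48, 11.51 and 11.56 at 0 h, 11.33 and 11.20 at 3 h, 11.37, 11.13 and 11.19 at 6 h and 10.73, 11.18 and 11.29 at 18 h. Here too every treated array lay below every control. Only the 18 h difference was called (1.38-fold, log2 -0.46 ± 0.13, adjusted p = 0.0362), those at 3 and 6 h being -0.27 ± 0.15 and -0.30 ± 0.13 (adjusted p = 0.580 and 0.166). It was lost without any 1 of control replicates 1, 2 and 4, 6 h replicate 3 and 18 h replicates 1 and 2 (0.0518 to 0.13). SOD2, the mitochondrial manganese enzyme, read 12.50, 12.46, 12.98 and 12.42 at 0 h, 11.60 and 12.44 at 3 h, 12.59, 12.38 and 12.57 at 6 h and 12.35, 12.16 and 12.94 at 18 h. The groups overlapped, with 3 h replicate 1 the lowest array, and SOD2 was not called (-0.57 ± 0.26, -0.08 ± 0.23 and -0.11 ± 0.23). SOD3, the extracellular enzyme, was not called either (0.18 ± 0.27 at 18 h).

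GPX3, the secreted glutathione peroxidase, had the largest called fall of any member at 6 h. Its arrays stood at 11.22, 11.65, 10.89 and 11.42 at 0 h, 10.45 and 10.72 at 3 h, 9.97, 10.09 and 9.80 at 6 h and 10.49, 10.34 and 11.18 at 18 h. The 3 and 6 h arrays lay below every control, and 18 h replicate 3 lay back among the controls. GPX3 averaged 9.95 ± 0.15 (n = 3) at 6 h, against 11.29 ± 0.33 (n = 4) at 0 h, and was down regulated 2.53-fold (log2 -1.34 ± 0.21, adjusted p = 0.00406) under every alternative run. At 3 h it differed by -0.71 ± 0.24 (adjusted p = 0.373) and at 18 h by -0.62 ± 0.21 (0.082), a difference that was called without control replicate 3 (-0.76, 0.0314) or 18 h replicate 3 (-0.88, 0.0197). At 18 h against 6 h the difference of 0.72 ± 0.23 was not called (0.224).

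The other 4 glutathione peroxidases were not called at any time. GPX1, the main cytosolic form, read 11.91, 11.98, 12.22 and 11.99 at 0 h, 12.42 and 11.82 at 3 h, 12.04, 12.15 and 11.78 at 6 h and 12.27, 12.25 and 12.72 at 18 h. The 18 h arrays lay just above the controls (0.39 ± 0.17, adjusted p = 0.164). GPX4, which reduces lipid hydroperoxides in membranes, differed by 0.04 ± 0.21, -0.14 ± 0.19 and -0.04 ± 0.19 at 3, 6 and 18 h.

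Among the glutathione S-transferases all calls were falls. Of 9 measured, 0 rose and 3 fell at 18 h and 1 fell at 6 h, where 8.35% and 7.66% of all genes were called lower. A difference below 0 was found in 8 of them at each of these times, against 58.5% of all genes at 6 h and 53.9% at 18 h. Their median was -0.31 at 6 h and -0.57 at 18 h, against -0.05 and -0.02 for all genes. GSTA4, which conjugates the lipid peroxidation product 4-hydroxynonenal, read 13.07, 12.65, 12.14 and 13.11 at 0 h, 12.43 and 12.98 at 3 h, 11.74, 12.27 and 12.07 at 6 h and 10.79, 11.87 and 11.15 at 18 h. Arrays at 3 h were like controls, those at 6 h overlapped control replicate 3, and those at 18 h lay below all controls. GSTA4 was down regulated 2.77-fold at 18 h (log2 -1.47 ± 0.29, adjusted p = 0.00699) under every alternative run, and the difference at 6 h was -0.72 ± 0.29 (0.139, and -0.92 with 0.0427 without control replicate 3).

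MGST3, a membrane-bound glutathione transferase with peroxidase activity, had 10.98, 10.83, 10.60 and 10.98 at 0 h, 10.59 and 10.50 at 3 h, 10.09, 10.45 and 10.68 at 6 h and 9.98, 9.98 and 10.14 at 18 h. Every 18 h array lay below every control, and it was down regulated 1.76-fold (log2 -0.81 ± 0.14, adjusted p = 0.00399), again under every alternative run. At 6 h the difference was -0.44 ± 0.14 (adjusted p = 0.069, and 0.0306 without control replicate 3 or 0.0354 without 6 h replicate 3).

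MGST2, a related enzyme that can also make leukotriene C4, read 7.65, 7.57, 6.77 and 7.49 at 0 h, 7.57 and 7.16 at 3 h, 6.30, 6.49 and 6.68 at 6 h and 6.41, 6.32 and 6.92 at 18 h. It was low by 6 h and remained low at 18 h, with control replicate 3 close to the treated arrays. The falls were 1.84-fold at 6 h (log2 -0.88 ± 0.22, adjusted p = 0.0268) and 1.76-fold at 18 h (-0.82 ± 0.22, adjusted p = 0.033). Both calls were lost without control replicate 1, 2 or 4, that at 6 h also without 6 h replicate 1 or 2 (0.0669 to 0.105) and that at 18 h without 18 h replicate 1 or 2 (0.078 to 0.125).

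GSTA2, an alpha class enzyme that is abundant in steroidogenic tissue, had widely spread arrays, with 14.23, 13.68, 13.32 and 14.01 at 0 h, 11.04 and 13.62 at 3 h, 13.20, 12.55 and 13.14 at 6 h and 13.03, 13.44 and 11.53 at 18 h. Single low arrays at 3 and 18 h made its differences there (-1.48 ± 0.64 and -1.14 ± 0.56) uncertain. All 6 h arrays lay below every control, but with 1 spread estimated over all groups the difference of -0.85 ± 0.56 was not called. None of its 5 probe sets was called against 0 h. Alpha class genes are close copies and the cattle probes may not separate them. GSTT1, a theta class transferase, narrowly missed the threshold at 18 h (-0.57 ± 0.17, adjusted p = 0.0556), and MGST1, a membrane-bound enzyme, stood at 0.16 ± 0.16 at 6 h and -0.42 ± 0.16 at 18 h (0.602 and 0.104), with calls at 18 h for both without control replicate 3 (0.015 and 0.0135). GSTT1 was also called at 18 h without either 3 h array (0.0461) or 6 h replicate 1 (0.0434). GSTK1, GSTM3 and GSTO1 were not called, with differences of -0.17, -0.51 and 0.07 at 18 h, though GSTM3 was without control replicate 3 (-0.88, 0.0375).

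Of the 4 genes of glutathione synthesis and reduction, 2 fell at 18 h, where 8.35% of all genes were called lower. GCLC, the catalytic subunit of the rate-limiting enzyme of glutathione synthesis, read 8.09, 7.74, 8.39 and 8.08 at 0 h, 7.87 and 7.67 at 3 h, 7.84, 7.55 and 7.33 at 6 h and 7.56, 6.88 and 7.28 at 18 h. It was lower at each time than at the one before in its group mean, and at 18 h did not overlap the controls. GCLC was down regulated 1.78-fold at 18 h (log2 -0.83 ± 0.19, adjusted p = 0.0144), a call lost without 18 h replicate 2 (0.0612).

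GSS, glutathione synthetase, had 8.28, 8.63, 7.71 and 8.38 at 0 h, 8.55 and 8.07 at 3 h, 7.64, 7.67 and 7.76 at 6 h and 7.56, 7.70 and 7.49 at 18 h, where the 18 h arrays lay just below control replicate 3 and well below the other controls. It fell 1.59-fold at 18 h (-0.67 ± 0.19, adjusted p = 0.0398). That call was lost without any 1 of control replicates 1, 2 and 4, the 6 h arrays and the 18 h arrays (0.0537 to 0.121), and without control replicate 3 GSS was called at 6 h too (-0.74, 0.00674). GCLM, the modifier subunit, differed by 0.40 ± 0.32, 0.22 ± 0.28 and -0.37 ± 0.28 at 3, 6 and 18 h, and GSR, which regenerates reduced glutathione, by 0.03 ± 0.17, -0.07 ± 0.15 and -0.27 ± 0.15.

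NQO1, a quinone reductase and a classical target of the transcription factor NRF2, read 7.65, 7.22, 6.76 and 7.68 at 0 h, 6.51 and 7.16 at 3 h, 6.74, 6.57 and 6.77 at 6 h and 6.34, 6.48 and 6.81 at 18 h. Control replicate 3 lay within the treated range, and the other controls lay above it. It was down regulated 1.72-fold at 18 h (log2 -0.78 ± 0.23, adjusted p = 0.0434), a call lost without any 1 of control replicates 1, 2 and 4, the 6 h arrays and the 18 h arrays (0.0511 to 0.164), and it was called at 6 h without control replicate 3 (-0.82, 0.0167). NQO2 differed by -0.82 ± 0.38 at 18 h (adjusted p = 0.200).

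HMOX1, the inducible haem oxygenase, which opens haem to biliverdin and iron, gave 7.62, 8.08, 8.63 and 7.67 at 0 h, 8.52 and 7.88 at 3 h, 8.24, 8.69 and 8.47 at 6 h and 8.55, 8.18 and 9.13 at 18 h. The groups overlapped through control replicates 2 and 3. Its differences of 0.20 ± 0.32, 0.47 ± 0.28 and 0.62 ± 0.28 were not called (adjusted p = 0.187 at 18 h, and 0.048 without control replicate 3). HMOX2, the constitutive enzyme, was not called (0.30 ± 0.22 at 18 h).

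At the times when these enzymes fell, luteal steroidogenic markers were lower as well, and HSD3B1, which makes progesterone, fell by 1.35 on the log2 scale at 18 h. Of 10 macrophage and monocyte markers 3 were called higher at 18 h, among them CD14 (2.64 ± 0.45) and CD68 (1.60 ± 0.21), and the mean of that list was 9.20 to 10.03 at 18 h, at most 9.32 at 6 h and 9.27 to 9.29 at 3 h, overlapping the control range of 8.38 to 10.15. Of all genes 7.55% were called higher and 8.35% lower at 18 h, and 6.55% and 7.66% at 6 h. Smooth muscle and pericyte markers averaged 10.30 to 10.62 at 18 h, against 9.09 to 10.02 at 0 h, with 3 of 7 called higher. Fibroblast and stroma markers averaged 11.97 to 12.40 at 18 h, against 11.08 to 11.91 at 0 h, with 3 of 8 called higher. Endothelial markers averaged 9.11 to 9.33 at 6 h and 9.02 to 9.17 at 18 h, against 8.81 to 9.14 at 0 h, with 4 of 11 called higher and 1 lower at both times. The part of any of these in the differences above was not tested. Control replicate 3 had the highest macrophage mean of the controls and the lowest luteal steroidogenic mean (13.03, against 13.23 to 13.46). Its endothelial (9.14), fibroblast (11.91), lymphocyte (7.30) and neutrophil (9.15) marker means were also the highest of the controls. Its smooth muscle mean (9.50) lay among theirs. The part of these in its values was not tested. Among the 17 called members, control replicate 3 had the highest control value of MT1A, MT2A, TXNDC17 and GCLC. It had the lowest of GSTA4, MGST2, MGST3, NQO1, GSS, GPX3, SOD1, PRDX3 and PRDX6. It thus lay on the side of the treated arrays for most of these genes and on the other side for GCLC and PRDX6. Without it the called members numbered 11 at 6 h (4 higher, 7 lower) and 20 at 18 h (4 higher, 16 lower). All genes gained calls as well, with 7.74% higher and 10.5% lower at 6 h and 8.88% higher and 10.6% lower at 18 h.

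The animals at 3 h differed most in these genes. Of the 47 genes 7 were more than 2-fold apart between them (14.9%), against 6.61% of all genes. Replicate 3 was the higher for GSTA2 (by 2.57 on the log2 scale), MT1A (2.33), TXNRD1 (1.61) and MT2A (1.35), and replicate 1 was the higher for PRDX2 (1.34), HMOX2 (1.18) and GCLM (1.18). Neutrophil markers averaged 8.35 in replicate 1 and 9.84 in replicate 3, against 8.70 to 9.15 at 0 h. Smooth muscle and pericyte markers averaged 9.19 and 10.12, while macrophage and monocyte markers were alike (9.29 and 9.27). The part of these in the split was not tested. With 2 animals, which of them is the more typical cannot be told.

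**Figure D4:**
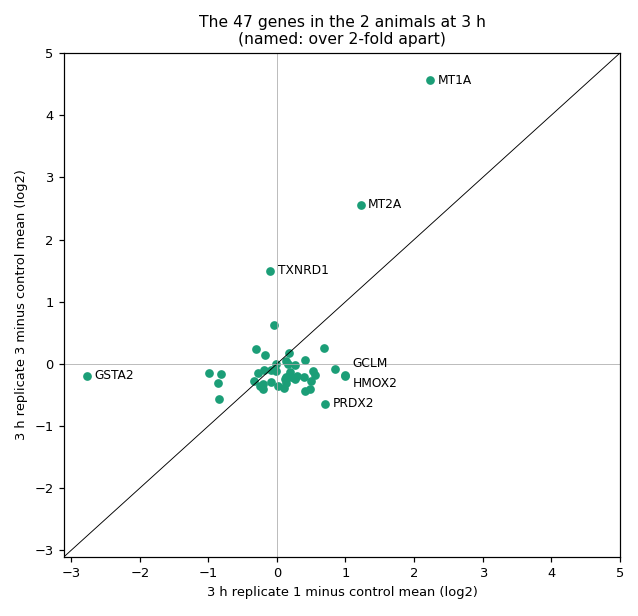
Each of the 47 genes as its difference from the control mean (log2) in 3 h replicate 1 (x axis) and 3 h replicate 3 (y axis), with the line of equality and with genes over 2-fold apart named. MT1A and MT2A are above the controls in both animals, TXNRD1 in replicate 3 alone, and GSTA2 is far below them in replicate 1 alone.

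Between treated times few members differed. Comparing 6 h with 3 h, no member was called, with 0.153% of all genes higher and 0.0765% lower, and 5 members had an unadjusted p under 0.05 (10.6%, against 15.2% of all genes). For 18 h against 3 h 1 member was called, GSTA4, lower by log2 -1.44 (adjusted p = 0.0496), where 2.29% of all genes were higher and 1.49% lower. That call was lost without any 1 of control replicates 1, 2 and 4, the 3 h arrays, the 6 h arrays and 18 h replicates 1 and 3 (0.0521 to 0.16). For 18 h against 6 h no member was called, with 0.371% of all genes higher and 0.273% lower, and 7 members had an unadjusted p under 0.05 (14.9%, against 13.8% of all genes). Differences between 6 h and 18 h were thus not shown for any member, and lists of calls against the shared controls at these times are not independent of each other.

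The wider NRF2 circuit was examined next. NRF2, the product of NFE2L2, activates many glutathione and thioredoxin genes with small MAF partners and is held in check by KEAP1. Of 17 genes of this circuit outside the rule, 3 were higher and 3 lower at 6 h, against 6.55% and 7.66% of all genes, and 3 were higher and 5 lower at 18 h, against 7.55% and 8.35%. EPHX1, an epoxide hydrolase, fell 4.87-fold at 18 h (log2 -2.28 ± 0.55, adjusted p = 0.0198), with arrays at 8.76, 8.01 and 9.53, against 11.32, 11.60, 9.87 and 11.41 at 0 h. MAFF, a small MAF protein, rose 3.92-fold at 6 h (1.97 ± 0.52, adjusted p = 0.033). EPHX1 lost its call without any 1 of control replicates 1, 2 and 4 and 18 h replicates 1 and 2 (0.0528 to 0.0836), and MAFF without any 1 of control replicates 1, 2 and 4 and the 6 h arrays (0.0633 to 0.111). SQSTM1, an autophagy receptor that binds KEAP1, rose 2.64-fold at 18 h (1.40 ± 0.26, adjusted p = 0.0052), and NFE2L1, a factor related to NRF2, fell at 6 h (-0.70 ± 0.11, adjusted p = 0.00406) and at 18 h (-0.85 ± 0.11, adjusted p = 0.000947). Both genes kept these calls under every alternative run. NFE2L2 itself, chosen after its values were seen, read 11.60 to 11.89 at 0 h and 11.40 to 11.78 at 18 h and was not called (-0.15 ± 0.11). KEAP1 was called lower at 6 h (-0.46, adjusted p = 0.0171) and at 18 h (-0.41, 0.0251). MAFG, another small MAF protein, was called higher at 6 h (0.79, 0.049). These calls too were lost without single arrays (0.0505 to 0.0781 and 0.0516 to 0.0913 for KEAP1, 0.0682 to 0.172 for MAFG).

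Of 16 genes that supply or break down glutathione, 1 was higher and 0 lower at 6 h (6.55% and 7.66% of all genes) and 2 were higher and 1 lower at 18 h (7.55% and 8.35% of all genes), shares near those of all genes. SLC3A2, the heavy chain of the cystine and glutamate exchanger, rose at 18 h (0.82 ± 0.23, adjusted p = 0.0395), as did SLC1A4, a transporter of neutral amino acids (0.72 ± 0.20, 0.0392). CHAC2, which breaks down glutathione, fell (-0.74 ± 0.16, 0.0119), and CHAC1, its inducible relative, rose at 6 h (0.51 ± 0.15, 0.0428). Each call depended on single arrays. CHAC2 lost its call without 18 h replicate 2 (0.0535). SLC3A2 lost it without any 1 of the controls, 6 h replicates 1 and 2 and the 18 h arrays (0.0523 to 0.12), SLC1A4 without any 1 of control replicates 1, 3 and 4, 6 h replicate 3 and 18 h replicates 1 and 2 (0.0529 to 0.147), and CHAC1 without any 1 of control replicates 1, 2 and 4, the 6 h arrays and 18 h replicates 1 and 2 (0.051 to 0.176).

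Among 21 glutaredoxins, selenoproteins and protein repair genes, 2 were higher and 2 lower at 6 h and 1 was higher and 2 lower at 18 h, close to the 6.55% and 7.66% of all genes at 6 h and the 7.55% and 8.35% at 18 h. MSRB2, a mitochondrial methionine sulfoxide reductase, fell 2.27-fold at 18 h (log2 -1.18 ± 0.26, adjusted p = 0.0117) and GLRX5, a mitochondrial glutaredoxin of iron-sulfur cluster assembly, 1.82-fold (-0.86 ± 0.19, 0.0137). Both calls were lost with replicate number added to the fit (0.0731 and 0.0673). SESN1, a sestrin, fell 2.18-fold at 6 h (-1.12 ± 0.18, 0.00462) and OXR1, an oxidation resistance gene, 1.65-fold (-0.72 ± 0.15, 0.0108), the last call being lost without 6 h replicate 2 (0.0545).

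Of 15 genes that produce superoxide or hydrogen peroxide, 1 was higher and 0 lower at 6 h and 2 were higher and 1 lower at 18 h, where all genes gave 6.55% and 7.66% at 6 h and 7.55% and 8.35% at 18 h. MAOB, a mitochondrial amine oxidase that releases hydrogen peroxide, rose 2.23-fold at 6 h (1.16 ± 0.29, adjusted p = 0.0266) and 2.41-fold at 18 h (1.27 ± 0.29, 0.0151). NOX4, an NADPH oxidase, rose 1.78-fold at 18 h (0.84 ± 0.20, 0.0193), and AOX1, an aldehyde oxidase, fell 1.81-fold with an adjusted p just under the threshold. MAOB lost its call at 6 h without control replicate 1 or 4 or 6 h replicate 1 or 2 (0.0753 to 0.106) and at 18 h without 18 h replicate 1 or 2 (0.0637 to 0.0772), NOX4 without control replicate 1 or 18 h replicate 2 or 3 (0.0602 to 0.0742), and AOX1 without any 1 of the controls, the 6 h arrays and 18 h replicates 1 and 3 (0.0592 to 0.195).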

How the data were processed

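The deposited values are log2 signals that the authors computed with RMA from Affymetrix Bovine Genome arrays. Scanner files were not used, and for software version and chip definition nothing is given in the sources used here. Of 24128 rows 112 control probe sets were left out, leaving 24016, of which 13292 had a single gene symbol in the platform annotation, 86 several and 10638 none. The 47 genes had 63 probe sets, and 40 of their symbols were found in the RefSeq annotation of the buffalo. Array medians were 7.09 to 7.17, and precision is limited by how few arrays there are.

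A model of 4 group means was fitted with lmFit to the 12 arrays (limma 3.58.1, R 4.3.3), contrasts were moderated with eBayes, and p-values were adjusted over 24016 probe sets within each comparison, called under 0.05. Steps were tested on simulated data. Values are log2 differences ± SE, and group levels are means ± SD. The labels call the samples biological replicates, 1 animal each. Members and lists were chosen with earlier results of these data known. Per-array values were given for members called against 0 h, ordered by largest difference, up to 20, and for fixed genes (CAT, SOD1, SOD2, GPX1, TXN, HMOX1, MT1A, MT2A). TXNRD1 and GSTA2 were added after their values were seen. In each pathway list up to 4 called genes with the largest differences were named, and KEAP1 and MAFG were added after their values were seen. Other settings tried were leaving out the dimmest 40% of probe sets, subtraction of array medians, repeated quantile normalization, eBayes with trend and robust settings, 1 probe set per gene fitted alone, the mean of a gene's probe sets, control replicates 1 and 4 averaged, a replicate block, and leaving out each array in turn.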

Additional observations from a re-analysis of the deposited data

Results flagged for a closer look

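TXNDC17, a cytosolic disulfide reductase, stood at 10.72 in control replicate 3, far from the other controls at 10.39 to 10.44 (the gap was 0.851 of the range). SOD2, the mitochondrial superoxide dismutase, stood at 12.98 in the same animal, against 12.42 to 12.50 (0.863). Of the 47 genes 2 were set apart in this way, and about 5% would be by chance. Macrophage and monocyte markers were also highest, and luteal steroidogenic markers lowest, among the controls in that animal. The part of either in these values was not tested. GSTA4 was lower at 18 h than at 3 h (log2 -1.44, adjusted p = 0.0496), the difference between these times that alone passed the test among the members.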

How the results depend on the processing

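The calls of MT1A, MT2A and GPX3 at 6 h and of GSTA4, MGST3 and PRDX3 at 18 h held under every alternative run. Whether the replicate numbers pair animals across times is not stated in the labels, and these values could not decide it. The 15 same-numbered pairs had correlations of deviations from the group means of -0.26 to 0.191, with 3 over 0.1. Of 11 arrays 5 correlated best with their own number. Taking deviations within groups makes the arrays at 3 h mirror images of each other, so these correlations cannot exclude pairing. With the replicate block the lower calls were 1 at 6 h, 4 at 18 h and 0 at 18 h against 3 h, the higher calls at 18 h were 1, and the F test called 1 member; SOD1 (0.0566) and MGST2 (0.125) lost their 6 h calls. With the block 2.15% of all genes were lower at 6 h, 3.76% lower and 4.13% higher at 18 h, and 0.36% lower at 18 h against 3 h. With control replicates 1 and 4 averaged, the 18 h calls were 0 higher and 5 lower, against 5.02% and 4.97% of all genes. In that fit the F test called 1, and 18 h against 3 h had 0 lower, against 1.05% of all genes. Higher calls at 18 h were 1 after repeated quantile normalization and 1 with the mean of a gene's probe sets, against 7.71% and 8.04% of all genes. Lower calls at 18 h against 3 h were 0 after subtraction of array medians and 0 with trend and robust settings, against 1.56% and 1.54% of all genes. Leaving out 1 array gave 0 to 3 higher calls at 3 h, 2 to 5 higher and 2 to 7 lower at 6 h, 0 to 6 higher and 4 to 16 lower at 18 h, 0 to 1 higher and 0 to 2 lower for 6 h against 3 h, 0 to 3 higher and 0 to 4 lower for 18 h against 3 h, and 1 to 20 by the F test. Small uncalled differences changed sign. With control replicates 1 and 4 averaged GSTA4 at 3 h was 0.08 and MGST2 0.06. With the block they were 0.23 and 0.03. MGST2 at 3 h was 0.02 after subtraction of array medians and 0.0 after quantile normalization. With the mean of probe sets GPX1 was -0.02 at 3 h and 0.03 at 6 h, PRDX3 0.08 at 6 h and PRDX6 0.0 at 3 h. Leaving out 1 array gave, at 3 h, GSTA4 at -0.31 to 0.24, MGST2 at -0.21 to 0.20, GPX1 at -0.21 to 0.39, GSS at -0.19 to 0.30, HMOX1 at -0.12 to 0.52, TXNDC17 at -0.18 to 0.56, TXNL4B at -0.35 to 0.01 and PRDX6 at -0.28 to 0.50. At 6 h it gave GPX1 at -0.12 to 0.07 and SOD2 at -0.13 to 0.05, and at 18 h SOD2 at -0.33 to 0.06. The cause was not tested.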
